A study of Mus musculus with 4 samples.

Results

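The genes described here are 10 genes of antioxidant defence in the mouse: *Sod1*, *Sod2*, *Sod3*, *Cat*, *Gpx1*, *Gpx6*, *Prdx6*, *Nqo1*, *Hmox1* and *Gclc*. They were chosen by name, with no measured value in the rule but with earlier results of these data known. They are 10 of the 45604 genes measured on the arrays. The 10 genes were read by 11 of 56605 probes, 2 of them for *Prdx6* and 1 for each other gene. The RNA came from the mucosa of the nasal septum, named olfactory epithelium in the sample labels, which was taken as whole tissue and not sorted. The ages compared were young adult C57BL/6J mice of 8 weeks and aged C57BL/6J mice of 16 months, and no transgene or treatment is given for them. Each age was measured on 2 Agilent one-colour arrays, and each array carried RNA pooled from 5 mice. The number of mice that the study gives for its gene analyses is smaller than separate pools of this size would need. Whether the 2 pools of an age held different mice is not stated, so every P below measures the spread between these pools, which may be technical. The sample records also carry a description of silica aspiration and lung cells that matches neither the sample titles nor the study, and it was not used.

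Cells remove reactive oxygen species in steps. Superoxide dismutases turn superoxide into hydrogen peroxide, and catalase, glutathione peroxidases and peroxiredoxins turn the peroxide into water, the peroxidases at the expense of glutathione or thioredoxin. A second layer, which includes *Nqo1*, *Hmox1* and *Gclc*, is induced through the transcription factor NRF2 (*Nfe2l2*) when KEAP1 no longer holds it back, and the nasal mucosa, which meets inhaled oxidants and xenobiotics directly, is rich in such enzymes.

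A level below is the normalized intensity of a gene's probe on an array. Where a gene has several probes, it is their mean taken on the log2 scale, and single probes can lie far from it. Levels of different genes cannot be set against each other because each probe binds with its own strength. Between 63.1% and 76.8% of spots were well above background on an array, no spot was saturated, and the correlation of log2 levels across genes between any 2 arrays lay between 0.982 and 0.989. The mice are male according to the series record, but *Xist*, the RNA that coats the silenced X chromosome in female cells, had levels of 612 to 645 on the 4 arrays, and none of 4 Y-linked genes was well above background on any array. The arrays therefore went against the stated sex in both ages alike, and no comparison below rests on sex. The probes of all 10 antioxidant genes were well above background on all 4 arrays. Young adult pool 1 and aged pool 1 were hybridised on one slide, and the other arrays were each on a slide of their own. Differences were tested with limma, and a gene was called where P was under 0.05 and the Benjamini-Hochberg FDR over all 45604 genes under 0.25. In the same test 3.98% of all genes were called, 1.65% as higher and 2.33% as lower in the aged mucosa. Among the 25513 genes with a mean level of at least 100, as all 10 antioxidant genes had, these shares were 5.41%, 2.13% and 3.28%.

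In the aged septal mucosa *Hmox1* rose 1.49-fold and *Sod3* fell to 0.625 of its young adult level, and the other 8 of the 10 genes were not called. By an unadjusted P under 0.05, 4 of the 10 genes differed, *Hmox1* as higher and *Sod3*, *Cat* and *Nqo1* as lower, against 13.1% of all genes and 15.9% of those with a mean level of at least 100. The estimates pointed up for 5 genes and down for 5 genes, with a median log2 difference of 0.0054 against 0.0093 over all genes tested. The 2 aged arrays lay outside the range of the 2 young adult arrays for each of the 10 genes, and the same held for 46% of all genes and 57.8% of the genes with a mean level of at least 100.

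**Figure D1:**
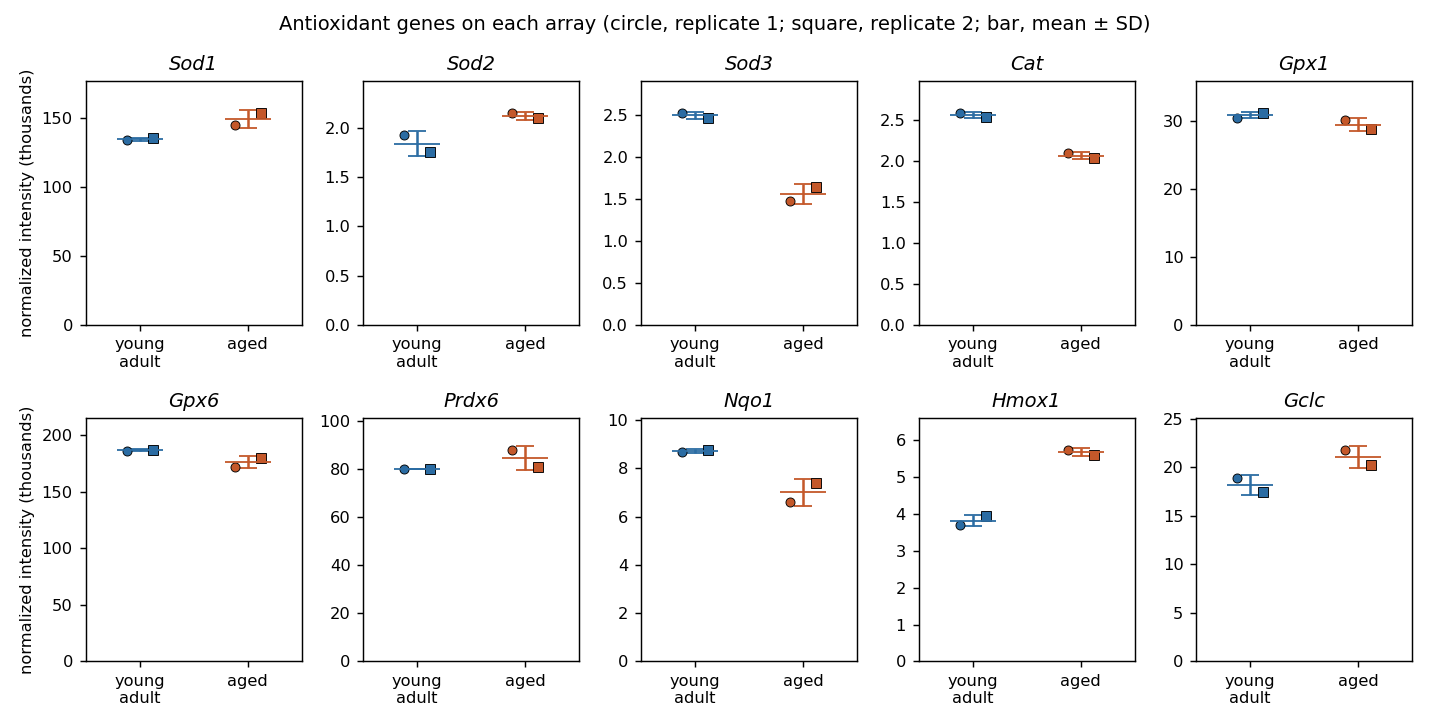
Normalized intensity of the 10 antioxidant genes on each array, one panel per gene with its own vertical axis from 0. Points are single pools of 5 mice, and bars are the mean ± SD of the 2 pools of an age. The aged points lie above both young adult points for *Sod1*, *Sod2*, *Prdx6*, *Hmox1* and *Gclc* and below both for the other 5 genes.

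Of the 3 superoxide dismutases *Sod3* fell, and *Sod1* and *Sod2* were not called. *Sod3* encodes the secreted enzyme that binds to the extracellular matrix. Its levels were 2526 and 2465 in the young adult pools and 1476 and 1647 in the aged pools. Both aged pools were far below both young adult pools, and the gap was several times the distance between pools of one age. The mean fell from 2495 ± 43.5 (SD, n = 2) to 1561 ± 121 (SD, n = 2), a log2 difference of -0.68 (SE 0.096, 95% interval -0.97 to -0.39, FDR = 0.209), which is 1.60-fold lower. *Sod3* was the only one of the 10 genes to also pass the limits for a differentially expressed gene, a mean level of at least 100 and a fold change of at least 1.5, which 1.96% of all genes and 3.51% of those at that level passed. The log2 difference was -0.78 between the 2 arrays of the shared slide and -0.58 between the other pair. With any 1 of the 4 arrays left out, the log2 difference lay between -0.76 and -0.60.

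*Sod2*, the manganese enzyme of mitochondria, had levels of 1929 and 1754 in the young adult pools and 2154 and 2097 in the aged pools. The aged pools were the higher ones, but the young adult pools stood further apart from each other than the aged pools did. The log2 difference was 0.21 (SE 0.092, 95% interval -0.07 to 0.48, FDR = 0.470). *Sod1*, the copper and zinc enzyme of the cytosol, had levels of 133865 and 135564 in the young adult pools and 145024 and 153927 in the aged pools. The aged pools were again the higher ones, by a small margin. The log2 difference was 0.15 (SE 0.081, 95% interval -0.09 to 0.39, FDR = 0.541). Whether the difference of *Sod3* departs from those of *Sod1* and *Sod2* was not tested.

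Promoter windows of 250 bases before the gene start were taken from RefSeq (GRCm38.p6) and searched for the core of the antioxidant response element, the DNA word bound by NRF2 with its small MAF partners, spelled TGACNNNGC, on both strands. Of the 10 genes, 6 had a window (*Sod1*, *Sod2*, *Cat*, *Gpx1*, *Gpx6* and *Nqo1*), and 1 of the 6 windows held the word, against 10.2% of all 32851 windows. The window with the match belongs to *Sod1* and is shown beside that of *Nqo1*, a gene known for its induction by NRF2, whose window holds no match. The *Sod1* window lies at chr16:90220512-90220761 on the plus strand and the *Nqo1* window at chr8:107403206-107403455 on the minus strand, and each is written 5′ to 3′ along its gene. Capitals mark the match in *Sod1*, which is on the opposite strand, 48 to 56 bases before the gene start.
Sod1: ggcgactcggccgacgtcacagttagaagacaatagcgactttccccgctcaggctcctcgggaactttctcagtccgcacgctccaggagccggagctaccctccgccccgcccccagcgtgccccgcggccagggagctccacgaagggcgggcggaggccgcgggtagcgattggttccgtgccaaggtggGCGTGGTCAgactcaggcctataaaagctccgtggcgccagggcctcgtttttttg
Nqo1: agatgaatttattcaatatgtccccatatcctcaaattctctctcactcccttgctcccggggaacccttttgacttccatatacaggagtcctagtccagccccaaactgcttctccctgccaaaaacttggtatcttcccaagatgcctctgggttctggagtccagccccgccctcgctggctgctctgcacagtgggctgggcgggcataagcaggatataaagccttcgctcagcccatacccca
A match is a run of letters and not a measured binding site, and none of the 6 genes with a window was called. A window without a match does not show that a gene lacks the element, since sequence beyond the 250 bases was not searched.

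Among the enzymes that remove hydrogen peroxide, none of the 4 genes was called. *Cat* encodes catalase, the peroxisomal enzyme that splits hydrogen peroxide without a cofactor such as glutathione. Its levels were 2589 and 2535 in the young adult pools and 2096 and 2036 in the aged pools. The pools of an age lay close together and the ages were clearly apart. The log2 difference of -0.31 (SE 0.076, 95% interval -0.54 to -0.08) had an FDR of 0.297, just above the limit. *Cat* was called under 6 of the alternative settings, which called 2989 to 7249 of all genes, against 1817 in the main setting. *Gpx1*, the glutathione peroxidase of cytosol and mitochondria, had levels of 30496 and 31186 in the young adult pools and 30099 and 28803 in the aged pools, which nearly touch. Its log2 difference was -0.07 (SE 0.078, 95% interval -0.30 to 0.17, FDR = 0.756).

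*Gpx6* is a glutathione peroxidase known for its expression in the olfactory mucosa. Its levels were 185975 and 187065 in the young adult pools and 171949 and 179653 in the aged pools. The aged pools were lower by a small margin, with a log2 difference of -0.09 (SE 0.078, 95% interval -0.32 to 0.15, FDR = 0.689). *Prdx6*, a peroxiredoxin that also reduces phospholipid peroxides, had levels of 80202 and 80083 in the young adult pools and 88261 and 81029 in the aged pools. Aged pool 1 stood above the other 3 arrays, and aged pool 2 was only just above the young adult pools. The log2 difference was 0.08 (SE 0.088, 95% interval -0.18 to 0.34, FDR = 0.746), and the 2 probes of *Prdx6* gave 0.09 and 0.07.

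**Figure D2:**
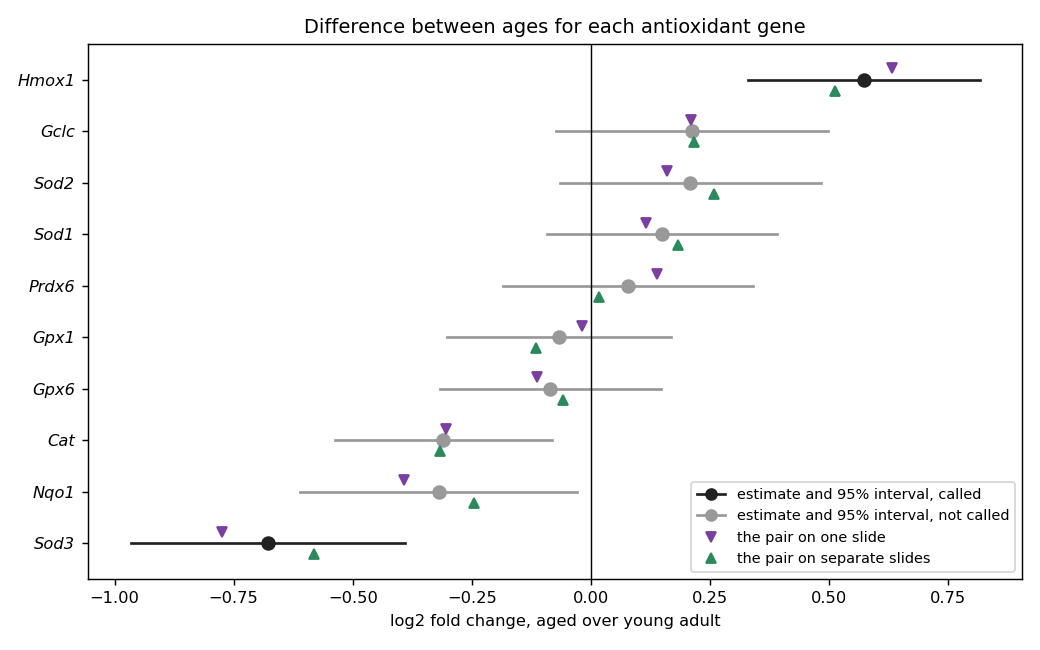
Log2 difference of aged minus young adult mucosa for the 10 antioxidant genes on the horizontal axis, with the limma estimate as a circle, its 95% interval as a line, and triangles for the pair of arrays on one slide and the pair on separate slides. *Hmox1* at 0.57 and *Sod3* at -0.68 are the called genes, and the intervals of *Cat* and *Nqo1* also lie below 0.

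The 3 genes of the NRF2-inducible layer had estimates in different directions. *Hmox1* encodes heme oxygenase 1, which degrades heme to biliverdin, carbon monoxide and iron and is induced by oxidants and by heme itself. Its levels were 3708 and 3932 in the young adult pools and 5749 and 5611 in the aged pools. Both aged pools were well above both young adult pools, and the pools of one age differed little. The mean rose from 3820 ± 158 (SD, n = 2) to 5680 ± 97.9 (SD, n = 2), a log2 difference of 0.57 (SE 0.082, 95% interval 0.33 to 0.82, FDR = 0.209). At 1.49-fold it was just under the fold limit of 1.5 and so was not a differentially expressed gene by that rule. The log2 difference was 0.63 between the 2 arrays of the shared slide and 0.51 between the other pair. With any 1 of the 4 arrays left out, the log2 difference stayed between 0.53 and 0.62.

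*Nqo1* encodes the NADPH quinone reductase that keeps quinones from redox cycling. Its levels were 8670 and 8774 in the young adult pools and 6601 and 7398 in the aged pools. The young adult pools were nearly equal, and the aged pools were both lower and further apart. The log2 difference of -0.32 (SE 0.097, 95% interval -0.61 to -0.03) had an FDR of 0.351 and was not called. *Gclc* encodes the catalytic subunit of glutamate-cysteine ligase, the first step of glutathione synthesis. Its levels were 18886 and 17426 in the young adult pools and 21829 and 20227 in the aged pools, the aged ones higher. The log2 difference was 0.21 (SE 0.096, 95% interval -0.07 to 0.50, FDR = 0.481).

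None of the 10 genes changed sign under any of the alternative settings tried, but for many of them this was fixed in advance. The aged arrays lay outside the young adult range for each gene, so single pairs and fits without 1 array could not change the sign. The block and trend fits kept the main estimate itself. Only the settings that changed background, scaling, filters or probe choice could have turned a sign. The pairs differed most in proportion for *Gpx1* (-0.02 on the shared slide and -0.11 between the other arrays) and *Prdx6* (0.14 and 0.02), and *Nqo1* had -0.39 and -0.25. Under 5 of the alternative settings *Sod3* and *Hmox1* were no longer called. These were the fit with the replicate number as a block, which called 0 of all genes tested, and the 4 fits that left out 1 array. Those 4 fits leave a single pool in 1 age. In all 5 settings calls were lost over all genes alike, so the loss is not particular to *Sod3* and *Hmox1*. At an FDR limit of 0.05 in place of 0.25, 0 of the 10 genes were called in limma, and 0 of all genes tested were. *Cat* was called under 6 settings, which called 2989 to 7249 of all genes, and *Nqo1* under 5, which called 4027 to 7249, each as lower. *Sod1*, *Sod2* and *Gclc* were each called as higher under 1 setting, the eBayes trend, which called 7130. The main setting called 1817 of all genes.

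**Figure D3:**
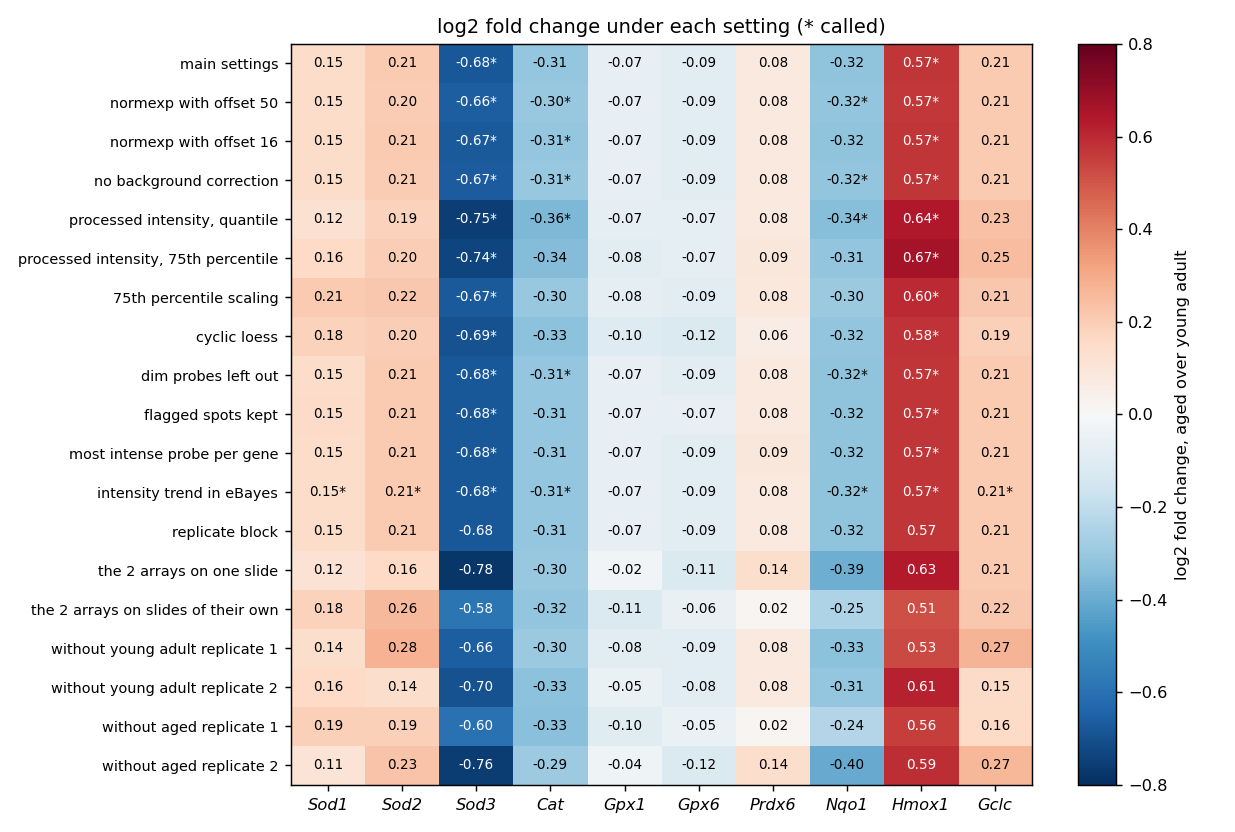
Log2 difference of aged minus young adult mucosa for each of the 10 antioxidant genes (columns) under each processing setting (rows), with the value printed in each cell, a star where the gene was called, and colour from blue for lower to red for higher. *Hmox1* has a positive and *Sod3* a negative value in each row, and the stars of both are missing in the rows of the block and the arrays left out. The rows of single pairs were not tested, so no star could stand there.

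Of 89 further genes of antioxidant defence and oxidant production, 88 were measured and *Duox2* had no probe named for it. Of the 88 genes, 5 rose and 6 fell, with a median log2 difference of 0.013. Over all genes tested 1.65% were called higher and 2.33% lower, with a median of 0.0093. Among those with a mean level of at least 100 these shares were 2.13% and 3.28%. By an unadjusted P under 0.05, 10 of the 88 genes were higher and 14 lower, against 13.1% of all genes and 15.9% at that mean level. With each array scaled to its 75th percentile in place of quantile normalization 4 rose and 3 fell, and *Gpx2*, *Gpx8*, *Slc40a1* and *Txnip* were not called. Over all genes 1410 were called under that scaling, against 1817 in the main setting. With the replicate number as a block, 0 of the 88 genes and 0 of all genes tested were called in limma, with 19 of the 88 at an unadjusted P under 0.05. With 1 array left out calls were likewise lost over all genes alike. These lists were put together with earlier results of these data known. Their counts, here and list by list below, are a description to be read beside the shares over all genes.

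The list of glutathione peroxidases beside *Gpx1* and *Gpx6* held the most calls in the downward direction. Of its 7 genes 3 were lower and 0 higher, against 2.33% of all genes called lower. The list also holds *Ccs*, a gene of superoxide dismutase maturation. *Ccs* had a log2 difference of 0.01 (FDR = 0.959), and it is named after its values were seen. *Gpx3*, the secreted glutathione peroxidase of plasma and basement membranes, had levels of 7532 and 7667 in the young adult pools and 4632 and 4770 in the aged pools. It fell to 0.619 of its young adult level, a log2 difference of -0.69 (SE 0.076, FDR = 0.187). *Gpx8*, an enzyme of the endoplasmic reticulum, fell by 0.46 on the log2 scale (FDR = 0.240), with levels of 2703 and 2815 against 1955 and 2056. *Gpx2*, the epithelial glutathione peroxidase, fell by 0.40 on the log2 scale (FDR = 0.246), with levels of 23874 and 23916 against 18094 and 18233. *Gpx4*, which reduces lipid peroxides in membranes, had overlapping levels of 56420 and 56415 against 65022 and 52949, and it is named after its values were seen.

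Among the 11 genes of heme, iron, metal and quinone handling 2 rose and 2 fell. The 2 that rose, *Mt1* and *Mt2*, belong to the metallothioneins, small cysteine-rich proteins that bind zinc and copper and scavenge radicals. *Mt1* had levels of 18602 and 18084 in the young adult pools and 32328 and 32945 in the aged pools. It rose 1.78-fold, a log2 difference of 0.83 (SE 0.076, FDR = 0.178), and its 2 probes gave 1.17 and 0.49. *Mt2* had levels of 117953 and 120209 against 191977 and 187658 and rose 1.59-fold, a log2 difference of 0.67 (SE 0.075, FDR = 0.189). *Mt3*, the third metallothionein in the list, was not called and had lower levels in both aged pools, with a log2 difference of -0.17 (FDR = 0.568), and it is named after its values were seen. In the same list *Cp*, ceruloplasmin, which oxidises iron in plasma, fell by 0.53 on the log2 scale (FDR = 0.210), and *Slc40a1*, the iron exporter ferroportin, fell by 0.43 (FDR = 0.236).

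The promoter windows of *Mt1* and *Mt2* are shown because both genes rose and lie side by side on chromosome 8, *Mt1* with its window at chr8:94178839-94179088 and *Mt2* with its window at chr8:94172368-94172617, both on the plus strand of GRCm38.p6 and both from RefSeq. Capitals mark matches to the core of the metal response element, spelled TGCGCNC or TGCACNC and searched on both strands, and to the antioxidant response core TGACNNNGC.
Mt1: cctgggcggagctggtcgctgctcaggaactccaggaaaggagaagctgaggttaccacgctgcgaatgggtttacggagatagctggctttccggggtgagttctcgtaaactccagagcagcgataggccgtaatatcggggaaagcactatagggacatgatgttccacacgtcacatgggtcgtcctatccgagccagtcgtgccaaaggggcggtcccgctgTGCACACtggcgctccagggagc
Mt2: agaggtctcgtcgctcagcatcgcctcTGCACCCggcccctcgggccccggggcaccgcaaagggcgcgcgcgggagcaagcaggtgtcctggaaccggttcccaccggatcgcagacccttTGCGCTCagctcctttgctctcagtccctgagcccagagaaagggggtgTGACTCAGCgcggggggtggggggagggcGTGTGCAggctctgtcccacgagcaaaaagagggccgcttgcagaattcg
The *Mt1* window held 1 metal match, 17 to 23 bases before the gene start. The *Mt2* window held 3 metal matches and 1 antioxidant match, the latter 71 to 79 bases before the start, and no match overlapped another. Each window ends at the gene start given by RefSeq, and sequence outside it was not searched. The counts therefore do not show how many elements either promoter holds. They also do not show that *Mt1* has fewer than *Mt2* or lacks an antioxidant element. A metal match was found in 21.4% of all windows of this length and in none of the 6 windows of the 10 antioxidant genes. Among the 109 windows of the further genes 17.4% held a metal match and 11.9% an antioxidant match.

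The list of thioredoxins, glutaredoxins and sestrins and the list of glutathione supply and turnover each had a single called gene. *Chac1*, an enzyme that degrades glutathione, had levels of 2912 and 2571 in the young adult pools and 6057 and 5912 in the aged pools. It rose 2.19-fold, a log2 difference of 1.13 (SE 0.10, FDR = 0.178), the largest estimate among the 88 genes in either direction. *Txnip*, which binds and inhibits thioredoxin, rose by 0.46 on the log2 scale (FDR = 0.233), with levels of 5606 and 5841 against 7769 and 7994. The other 13 genes of thioredoxins, glutaredoxins and sestrins and the other 7 of glutathione supply were not called. *Gclm*, the modifier subunit that pairs with the product of *Gclc*, had a log2 difference of 0.03 (FDR = 0.889), and it is named after its values were seen.

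No gene was called among the other peroxiredoxins, the NRF2 regulators, the enzymes of NADPH supply and those that repair oxidised proteins and lipids. Over all genes tested 3.98% were called. The largest estimates in these lists were -0.40 for *Prdx4*, the peroxiredoxin of the endoplasmic reticulum (FDR = 0.269), 0.41 for *Maff*, a small MAF protein (FDR = 0.253), 0.14 for *Me1*, malic enzyme (FDR = 0.588), and -0.30 for *Msrb1*, a methionine sulfoxide reductase (FDR = 0.301). Of the 9 NRF2 regulators 8 had a positive estimate, with a median of 0.14, and over all genes tested 23474 of 45604 did. The arrays of the ages did not overlap for 5 of the 9, against 46% of all genes. The list holds NRF2 as well as KEAP1, which holds it back, so a shared sign has no single meaning. *Nfe2l2* itself had a log2 difference of 0.26 (FDR = 0.374) and *Keap1* of 0.02 (FDR = 0.942), both named after their values were seen.

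Of the enzymes that produce oxidants, 18 were measured, 13 had a negative estimate, and 1 rose and 1 fell. Over all genes tested 22129 of 45604 had a negative estimate, and 3.98% were called. A different set of 13 of the 18 was well above background on all 4 arrays, and 1 gene was so on none. Some of the negative estimates therefore come from levels near the background. *Xdh*, xanthine dehydrogenase, which can release superoxide and hydrogen peroxide, rose by 0.46 on the log2 scale (FDR = 0.222), with levels of 1016 and 1013 against 1388 and 1396. The 2 probes of *Xdh* gave 0.67 and 0.24. *Duoxa1*, the maturation factor of the dual oxidase DUOX1, fell to 0.552 of its young adult level (log2 difference -0.86, SE 0.16, FDR = 0.246), with levels of 257 and 270 against 128 and 165.

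**Figure D4:**
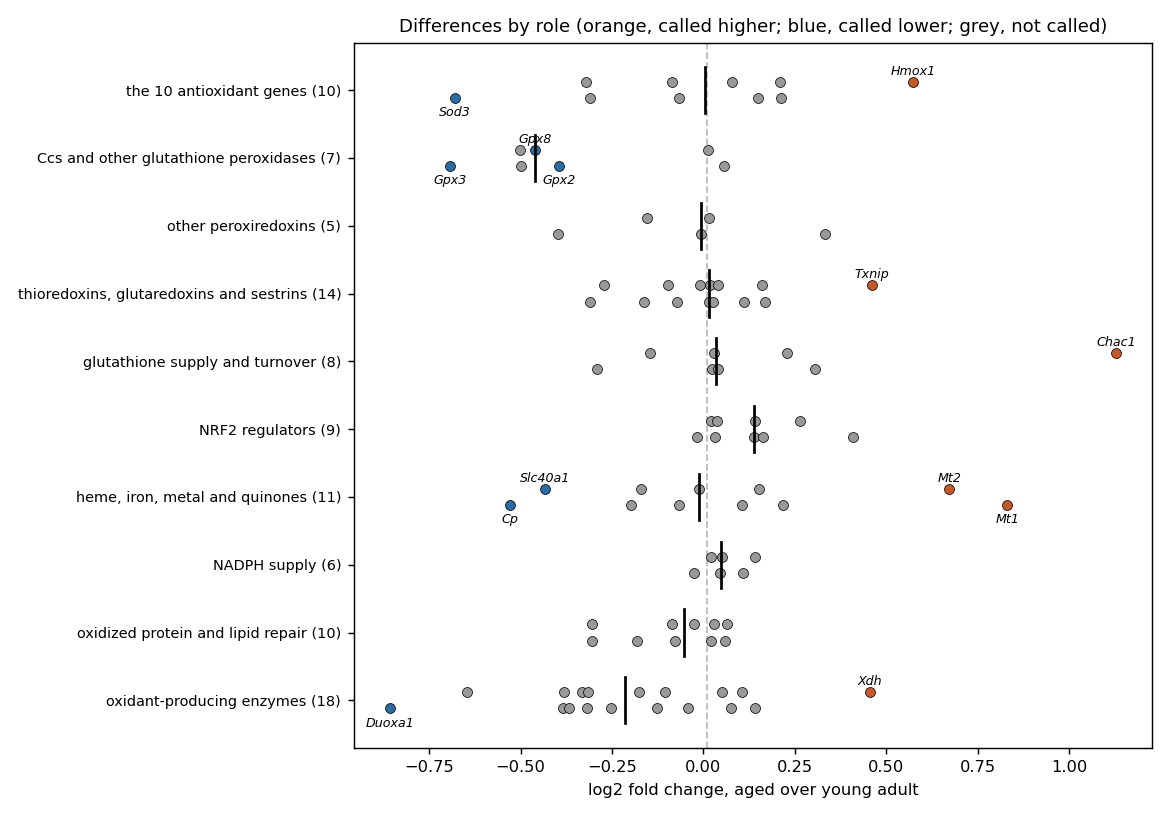
Log2 difference of aged minus young adult mucosa (horizontal axis) for the 10 antioxidant genes in the first row and the 88 further genes by list. Each point is a gene, orange where called higher, blue where called lower and grey otherwise, with a black bar at the median of a list and a dashed line at the median of all genes. The spread runs from -0.86 for *Duoxa1* to 1.13 for *Chac1*, and the list of glutathione peroxidases with *Ccs* lies mostly below 0.

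In whole tissue, fewer cells of a type and less RNA per cell cannot be told apart, so markers of the cell types in the mucosa were read beside these genes. Beside the lower *Sod3* and *Gpx3*, all 5 fibroblast markers had negative estimates and 3 of them fell, and their summed level was 172922 to 195164 in the young adult pools and 103076 to 111511 in the aged pools. All 4 endothelial markers had negative estimates and 1 fell, with sums of 2911 to 2914 against 1983 to 2151. Of the 3 smooth muscle and pericyte markers *Myh11* fell, with a log2 difference of -0.64, and *Acta2* at -0.22 and *Rgs5* at 0.17 were not called, while their summed level was 22535 to 22602 against 22337 to 22630. A summed level follows the probes that bind most strongly and can hide a change in a dim one. Every marker of these 3 lists was well above background on all 4 arrays, and their part in the lower *Sod3* and *Gpx3* was not tested.

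Heme oxygenase 1 is abundant in macrophages, which clear heme from red cells. Beside the higher *Hmox1*, 6 of 7 macrophage markers had negative estimates and 1 fell, and their summed level was 7726 to 8108 in the young adult pools and 6378 in both aged pools. The 6 erythroid markers, 4 with negative estimates and none of them called, summed to 30805 to 32081 against 25808 to 26756, and 1 of them was not well above background on any array. The part of these cells in the higher *Hmox1* was not tested.

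No marker of the 2 main cell types of the olfactory epithelium was called. All 6 markers of mature olfactory neurons had positive estimates, with a median log2 difference of 0.20 and sums of 420897 to 430770 in the young adult pools and 463640 to 472716 in the aged pools. Of 5 markers of sustentacular cells, which support the neurons, 4 had positive estimates, and the sustentacular sum was 853627 to 857748 in the young adult pools and 885061 to 895543 in the aged pools. Among the lists of tissues other than the mucosa, all 4 bone and osteoclast markers fell, with sums of 55399 to 56101 against 19720 to 19968. Of the 4 pituitary markers 2 rose, with sums of 620 to 703 against 8796 to 8972. Most of the aged sum was *Prl*, with a mean of 260 in the young adult and 8062 in the aged pools. *Gh*, which also rose, was well above background on 0 young adult arrays. Only 2 of the 4 markers were well above background on all 4 arrays. The part of these differences between the pools in the values of the 10 antioxidant genes was not tested.

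**Figure D5:**
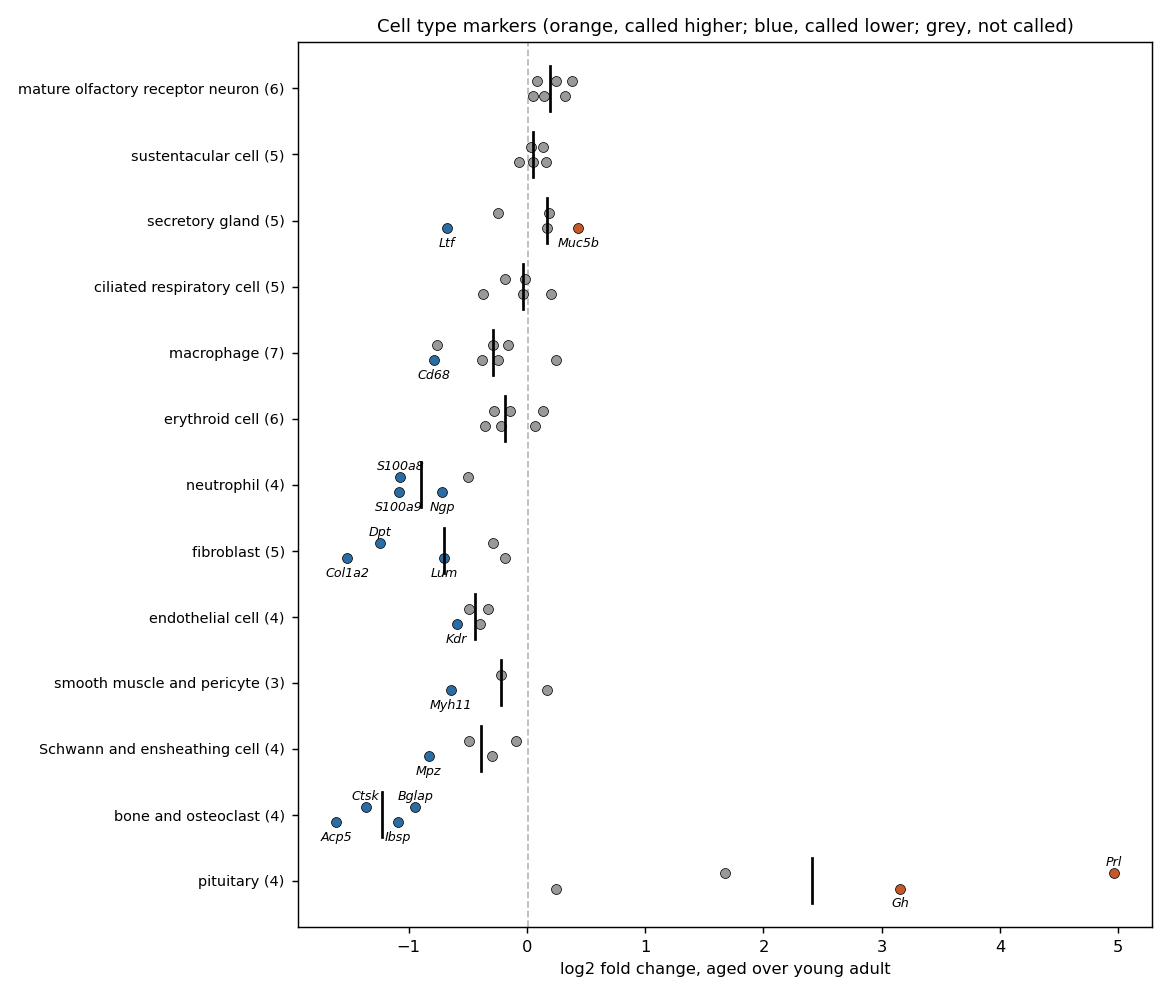
Log2 difference of aged minus young adult mucosa (horizontal axis) for cell type markers by list. Each point is a gene, orange where called higher, blue where called lower and grey otherwise, with a black bar at the median of a list and a dashed line at the median of all genes. All fibroblast, endothelial, neutrophil and bone markers lie below 0 and all pituitary and mature neuron markers above 0, and no neuron or sustentacular marker is coloured.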

How the data were processed

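RNA of pooled septal nasal mucosa was measured on 4 one-colour arrays. The authors extracted the spots with Agilent Feature Extraction 11.0.1.1 and deposited, per spot, the median intensity, the median intensity of the local background and a processed intensity, with no normalization between arrays. The series table equalled the processed intensity and was not used for the main values. The background of the median intensity was removed by normexp with an offset of 0 (limma 3.58.1, R 4.3.3), control and outlier-flagged spots were left out, spots of a probe were averaged, log2 values were quantile normalized, and probes of a gene were averaged. Probe accessions were matched to RefSeq symbols (GRCm38.p6), which named 58.3% of probes. The ages were compared with lmFit and eBayes without covariates, a call needed P under 0.05 and FDR under 0.25, and the fit was checked on simulated data. The thresholds, the averaging and the use of limma for background correction follow the methods of the study, which give no background method or offset. All 10 members, the called genes of each list and the largest estimate of a list without a call were named, and any other gene is marked as named after its values were seen. The members and lists were chosen with earlier results of these data known. Alternatives covered background, scaling, filters, probe choice, the fit and each array left out.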

Additional observations from a re-analysis of the deposited data

How the results depend on the processing

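In the main setting 2 of the 10 antioxidant genes and 11 of the 88 further genes were called. The counts were 4 and 24 with a normexp offset of 50, 4 and 21 without background correction, 4 and 21 with the processed intensity after quantile normalization, 4 and 27 without dim probes, and 7 and 33 with an intensity trend in eBayes. With an offset of 16, 3 and 19 genes were called, and with 75th percentile scaling 2 and 7. At an FDR under 0.05 the counts were 0 and 0, and 0 of all genes tested were called. At an unadjusted P under 0.05 the counts were 4 and 24, against 5990 over all genes. These are also the counts without an FDR limit (chosen after seeing the data). Leaving out each array in turn gave 0 to 0 called genes in both lists, with 2 of the 10 genes and 12 to 15 of the 88 genes at an unadjusted P under 0.05; the lone array was then assumed to vary like the other age. With the replicate number as a block 0 and 0 genes were called, with 3 and 19 at an unadjusted P under 0.05. The pools numbered 1 also shared a slide and those numbered 2 did not, and the deviations of same-numbered arrays had a correlation of -0.0779, so the numbers were not taken to pair the pools. Over all genes 1817 were called in the main setting, 1410 to 7249 under the other scalings, backgrounds, filters and variance models, and 0 under the block or with an array left out. The *Gpx1* estimate was -0.02 on the shared slide and -0.11 between the other arrays, the latter chosen after seeing the data. The slide as a random block could not be fitted, since 0 genes received a correlation from 3 slides. No exact permutation test of 2 against 2 pools can give a p under 0.333. The number of arrays limits the precision, and the 10 genes were all well above background.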
